A study of Mus musculus with 20 samples.

Results

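Fos, Fosb, Fosl1 and Fosl2 of the Fos family, Jun, Junb and Jund of the Jun family, and the transcription regulators Atf3, Egr1 and Ier2 were followed through sorted mouse embryonic stem cells (ESC). These 10 genes were taken by symbol, and all 10 were found among the 29692 genes of the RNA-seq table. ESC are pluripotent cells of the early embryo kept in culture, here with 10% FBS and leukemia inhibitory factor (LIF). Cells were separated by flow cytometry on Nanog and Sox2, factors that sustain pluripotency: state 3 was low in both, state 2 low in Nanog and high in Sox2, and state 1 high in both. The total population was the 4th group, and each group had 3 rRNA-depleted RNA-seq libraries. The authors gave 1 normalized value per gene and group, so no spread between libraries can be shown, and the labels do not say whether libraries came from separate cultures. No genotype, reporter or cell line is named in the labels used here, nor whether the total population went through the sorter.

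AP-1 is a dimer of basic leucine zipper (bZIP) proteins that binds DNA to switch genes on or off. Jun proteins pair with each other or with Fos proteins, while Fos proteins need a Jun partner. Many of these genes are immediate-early genes: they are transcribed within minutes of a growth factor, stress or handling signal, through kinases of the MAPK family and factors such as SRF and CREB, and their RNAs decay fast. Fosl1 and Fosl2 come up later and last longer in many cell types, and Jund is made at a steady level in most.

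The promoter sequences just before the start of 5 of these genes are shown because the genes moved together across the states, and because AP-1 and CREB type sites are known there for Fos and Jun. They are 120 bases long, from RefSeq on GRCm38.p6, 5′ to 3′ on the gene's strand, and the last base is the one before the start. Capitals mark TGACGT (the core of the CREB site, on either strand), TGANTCA (the AP-1 site) or TGANNTCA (its form with 1 more base).
Fos: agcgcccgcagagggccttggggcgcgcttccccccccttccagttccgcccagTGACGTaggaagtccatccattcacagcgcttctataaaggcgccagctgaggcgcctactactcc
Jun: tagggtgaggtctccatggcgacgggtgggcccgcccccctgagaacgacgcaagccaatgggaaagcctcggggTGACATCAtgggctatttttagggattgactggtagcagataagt
Atf3: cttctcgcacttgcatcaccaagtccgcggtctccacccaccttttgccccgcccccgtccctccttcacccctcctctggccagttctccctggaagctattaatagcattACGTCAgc
Junb: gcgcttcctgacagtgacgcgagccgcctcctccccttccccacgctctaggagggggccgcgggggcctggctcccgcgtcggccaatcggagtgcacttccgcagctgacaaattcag
Fosl2: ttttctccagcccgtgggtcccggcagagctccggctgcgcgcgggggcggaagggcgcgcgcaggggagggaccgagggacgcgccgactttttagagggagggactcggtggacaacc

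These stretches lie at chr12:85473770-85473889 on the plus strand for Fos, at chr4:95052223-95052342 on the minus strand for Jun and at chr1:191183334-191183453 on the minus strand for Atf3. That of Junb is chr8:84978749-84978868 on the minus strand, and that of Fosl2 is chr5:32136352-32136471 on the plus strand. RefSeq windows from 250 bases before to 50 bases after the start were found for 7 of the 10 genes, which adds Fosb and Jund. On either strand, TGACGT was present in 2 of the 7 windows, Fos and Atf3, and in 7.51% of all 32851 windows. In Fos it began 66 bases before the start, and in Atf3 8 bases before it. TGANNTCA was present in 2 of the 7, Jun and Jund, and in 14.1% of all windows, and in Jun it began 45 bases before the start. TGANTCA and the CArG box, the SRF site, had no match in the 7 windows, against 7.81% and 1.63% of all windows. Sites farther than 250 bases before the start were not searched, and Fosl1, Egr1 and Ier2 had no window. The lack of a match therefore does not show that a gene lacks such a site. A site that holds TGACGT and reads as a palindrome counts under both TGACGT and TGANNTCA. These are matches of letters and nothing more.

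Nanog and Sox2 RNA followed the sort. Nanog had values of 440.0 in state 3, 743 in state 2, 4145 in state 1 and 2783 in the total population, and Sox2 had 1306, 3167, 4155 and 3954 in the same groups. Of 7 markers of pluripotent cells, 0 were called higher and 6 lower in state 3 than in state 1, with summed values of 17892 in state 3, 26796 in state 2, 48898 in state 1 and 40023 in the total population. Of all genes, 11.4% were called higher and 9.01% lower. Esrrb (log2 -3.93) and Zfp42 (log2 -2.62) were lower along with Nanog (log2 -3.23) and Sox2 (log2 -1.67). Pou5f1, which encodes Oct4, was the marker not called, at 9826 in state 3, 10275 in state 2, 13810 in state 1 and 12174 in the total population (log2 -0.49 for state 3 over state 1, summed probability 0.931). Column totals ran from 16.9 to 17.7 M (value units), and about 48.0 to 60.4 M reads stood behind a group, judged from the commonest low value. A difference between groups was called where probabilities of the authors' EBSeq patterns that set the groups apart summed to at least 0.95. EBSeq is a Bayesian test that weighs every way in which groups can be equal or unequal. Log2 ratios are on the value plus 1, and their 95% intervals cover counting error only.

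**Figure D1:**
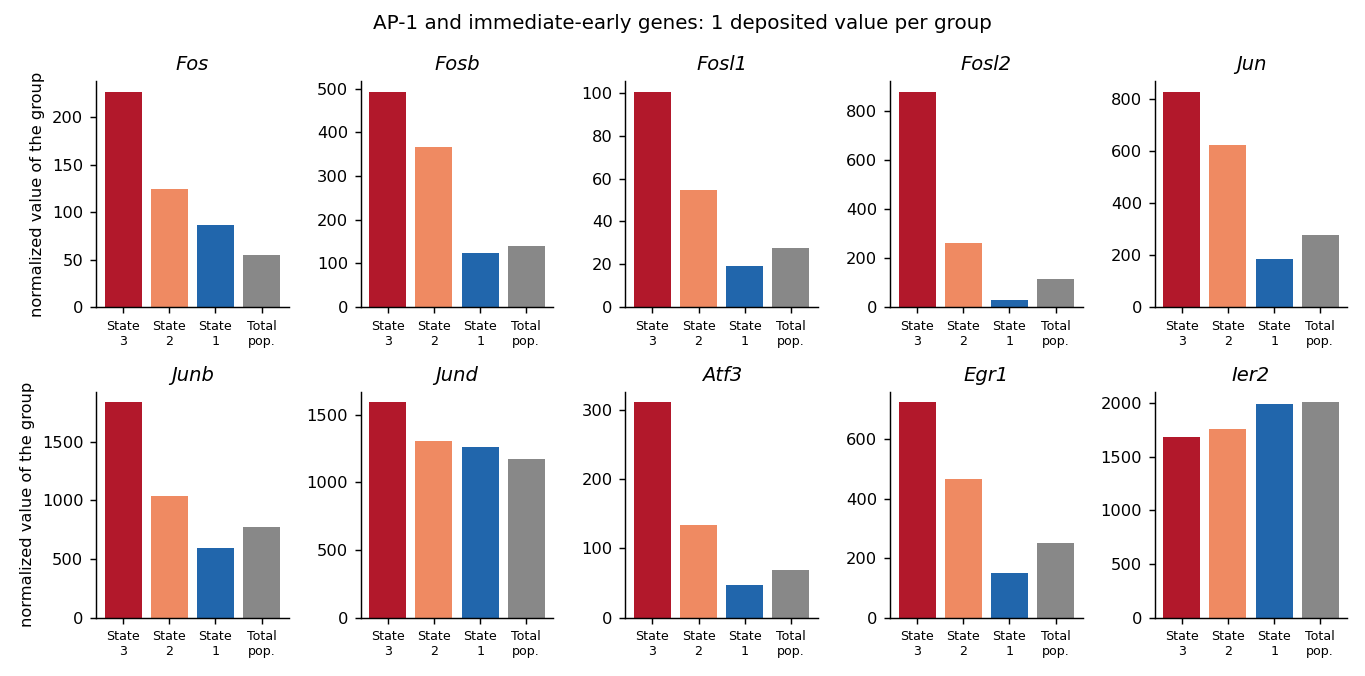
Normalized value (authors' unit, linear axis from 0) of each of the 10 genes in state 3, state 2, state 1 and the total population; each bar is the single deposited value of the group, with no replicate error available. In all but Ier2 the bars fall in the order state 3, state 2, state 1, and Jund and Ier2 have the flattest profiles. Of the 16795 genes with a mean of at least 5, 29.9% have values in that order.

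State 3 against state 1 sets cells low in Nanog and Sox2 beside cells high in both. Of the 10 genes, 8 were called higher in state 3 and 0 lower, and Jund and Ier2 were not called. The median log2 ratio of the 10 was 2.07, against 0.00 over all genes. Over the table, 11.4% of genes were called higher in this comparison and 9.01% lower. Among the 9764 genes with a mean in the range of the 10 genes (50.6 to 1857), a range set after the values were seen, 22.7% were called higher and 19.5% lower. In bulk RNA, more cells with a transcript and more transcript per cell cannot be told apart.

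Identifiers in parentheses are those of the table, with the RefSeq position on GRCm38.p6 matched by symbol. Within the Fos family the ratio of state 3 to state 1 ranged from 2.61-fold to 30.3-fold. Fosl2 (ENSMUSG00000029135.10, chromosome 5, 32136472 to 32157840), which encodes Fra-2, had values of 878 in state 3, 262 in state 2, 28.0 in state 1 and 115 in the total population. It was 30.3-fold higher in state 3 than in state 1 (log2 4.92, counting interval 4.61 to 5.23). State 1 stood far below each of the other groups for this gene, with about 88 reads behind its value, against about 2439 in state 3.

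Fosl1 (ENSMUSG00000024912.5, chromosome 19, 5447698 to 5455938), which encodes Fra-1, had 101 in state 3, 54.9 in state 2, 19.0 in state 1 and 27.7 in the total population. Its log2 ratio of state 3 over state 1 was 2.35 (counting interval 1.94 to 2.75). Fosb (ENSMUSG00000003545.3, chromosome 7, 19302696 to 19310118), whose product also pairs with Jun proteins, had 493 in state 3, 366 in state 2, 123 in state 1 and 139 in the total population. States 3 and 2 lay close together and well above state 1, with a log2 ratio of 2.00 for state 3 over state 1.

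Fos (ENSMUSG00000021250.13, chromosome 12, 85473890 to 85477274), the classic serum-induced gene, had the smallest ratio of its family. Its values were 227 in state 3, 125 in state 2, 86.1 in state 1 and 55.2 in the total population. State 3 was 2.61-fold above state 1 (log2 1.39). The value of Fosl2 divided by that of Fos was 3.87 in state 3, 2.1 in state 2, 0.326 in state 1 and 2.08 in the total population. That ratio was 11.9-fold higher in state 3 than in state 1, while Fosb over Fos was 1.53-fold higher. These differences between genes were not tested.

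In the Jun family, Jun and Junb were called and Jund was not. Jun (ENSMUSG00000052684.4, chromosome 4, 95049036 to 95052222), the partner with the strongest transactivation in the family, had 830 in state 3, 623 in state 2, 186 in state 1 and 277 in the total population (log2 2.15 for state 3 over state 1). Junb (ENSMUSG00000052837.6, chromosome 8, 84976909 to 84978748), which can oppose Jun at some targets, had 1835, 1038, 592 and 773 in the same order of groups (log2 1.63). Jund (ENSMUSG00000071076.6, chromosome 8, 70697739 to 70700616) had 1590.0 in state 3, 1302 in state 2, 1259 in state 1 and 1176 in the total population. Its log2 ratio of 0.34 came with a summed probability of 0.603, below the limit.

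The 3 Jun genes and Ier2 have no introns, so their RefSeq span gives a level per length. Per kb of span, Junb had a normalized value of 997 in state 3, Jund 552 and Jun 260.0. In state 1 Jund was at 437 per kb, Junb at 322 and Jun at 58.5. Junb was thus the most abundant Jun transcript per length in state 3 and Jund in state 1, with Jun the lowest in each of the 4 groups. Junb over Jund was 2.46-fold and Jun over Jund 3.52-fold higher in state 3 than in state 1.

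Atf3 (ENSMUSG00000026628.13, chromosome 1, 191170296 to 191183333), a stress-induced bZIP protein that pairs with Jun proteins and often represses, had 311 in state 3, 134 in state 2, 47.7 in state 1 and 68.2 in the total population. It was 6.4-fold higher in state 3 than in state 1 (log2 2.68). Egr1 (ENSMUSG00000038418.7, chromosome 18, 34861207 to 34864956), a zinc finger factor and common readout of ERK signalling, had 724, 466, 149 and 252 in the same groups (log2 2.27).

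Ier2 (ENSMUSG00000053560.4, chromosome 8, 84661331 to 84662852), a short-lived nuclear protein and a growth factor response gene, did not follow the order of the other 9. It had 1681 in state 3, 1755 in state 2, 1987 in state 1 and 2004 in the total population, and was not called (log2 -0.24, summed probability 0.312). Per kb of span it was at 1105 in state 3 and 1306 in state 1, above each Jun gene in every group. Ier2 and Junb lie 314 kb apart on chromosome 8 (end of Ier2 at 84662852, start of Junb at 84976909, GRCm38). Junb over Ier2 was 3.67-fold higher in state 3 than in state 1.

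**Figure D2:**
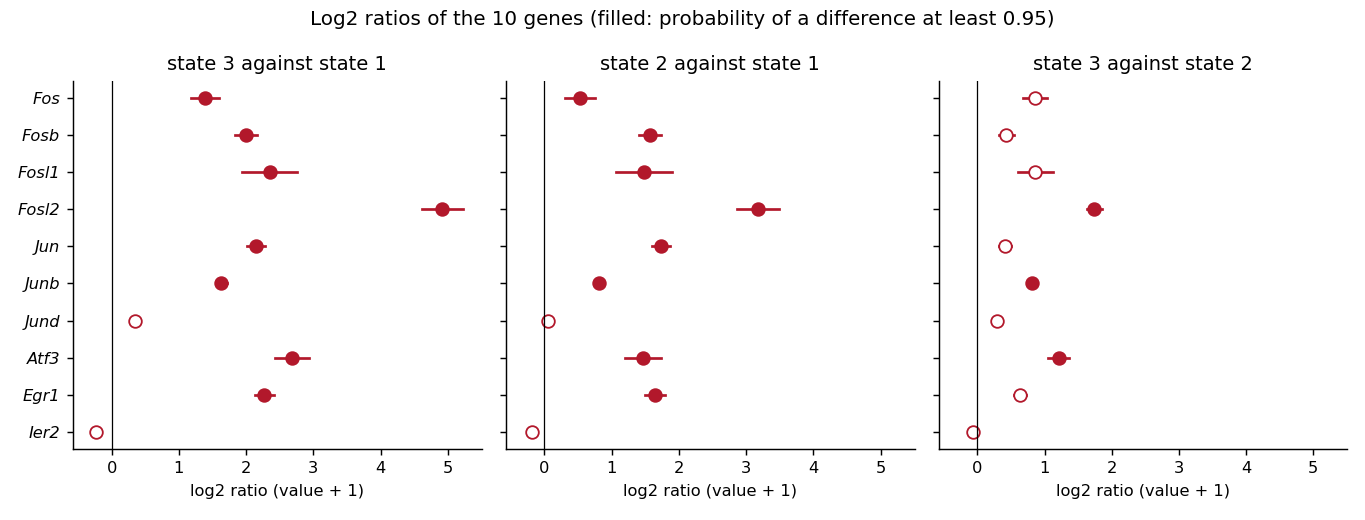
Log2 ratio of the value plus 1 for the 10 genes in 3 comparisons; lines are 95% intervals for counting error, and filled points have a summed probability of at least 0.95. Fosl2 lies farthest right in each panel, and Jund and Ier2 are open in all 3.

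State 2 and state 1 share the Sox2-high gate and differ in the Nanog gate. The shared gate did not hold Sox2 transcripts equal: values were 3167 in state 2 and 4155 in state 1, a called difference (log2 -0.39, summed probability 0.996). The same 8 genes were called higher in state 2 and 0 lower, against 7.11% of all genes called higher and 6.33% called lower. Fosl2 again had the highest fold, 9.05 (log2 3.18), followed by Jun at 3.33 (log2 1.74) and Egr1 at 3.12 (log2 1.64). Fosb, Fosl1 and Atf3 lay between 2.77-fold and 2.97-fold. Junb was 1.75-fold and Fos 1.44-fold higher, and the Fos call had a summed probability of 0.982. Jund had a log2 ratio of 0.05 and Ier2 one of -0.18.

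State 3 and state 2 share the Nanog-low gate and differ in the Sox2 gate. Nanog RNA was also called lower in state 3 (440.0 against 743, log2 -0.76), so these states did not differ in Sox2 alone. Here 3 of the 10 genes were called higher in state 3 and 0 lower, against 5.41% of all genes called higher and 3.19% called lower. Those were Fosl2 (3.34-fold, log2 1.74), Atf3 (2.31-fold, log2 1.21) and Junb (1.77-fold, log2 0.82). Fos and Fosl1 had ratios as high as Junb, each at log2 0.86, with summed probabilities of 0.913 and 0.873, and were not called. Egr1 had a log2 ratio of 0.63 (0.616), Fosb of 0.43 (0.017) and Jun of 0.41 (0.518), with the summed probability in parentheses. At a limit of 0.5 in place of 0.95, 8 of the 10 genes would be called in this step, and 4251 of all 29692 genes.

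The authors' deposited probabilities thus placed the genes in different patterns over the 3 states. All 3 states were apart, at a joint probability of 0.95 or more, for Fosl2, Junb and Atf3, against 3.51% of all genes. State 2 was equal to state 3, with state 1 apart, for Fosb (0.983), against 3.78% of all genes. Jun was split between these patterns (0.518 and 0.482), and so were Egr1 (0.616 and 0.384), Fosl1 (0.873 and 0.127) and Fos (0.895 and 0.087). For Ier2 equality of all 3 states had 0.688. For Jund, state 3 apart from equal states 2 and 1 had 0.516, and equality of all 3 had 0.396.

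The log2 ratio of state 2 over state 1 was a median share of 0.64 of that of state 3 over state 1 in the 8 called genes, with 0.38 for Fos and 0.81 for Jun as the extremes. The median over all 3394 genes called higher in state 3 was 0.59. Fosb (0.79) and Egr1 (0.72) stood near Jun, and Junb (0.50) and Atf3 (0.55) nearer the middle. In Fos the larger part of the difference lay between states 3 and 2.

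**Figure D3:**
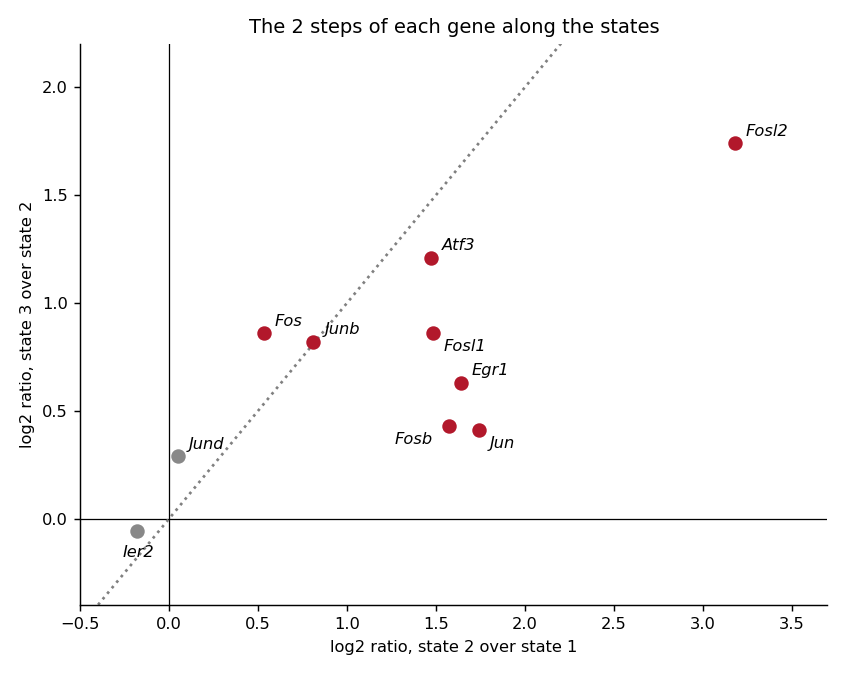
Log2 ratio of state 2 over state 1 (x axis) and of state 3 over state 2 (y axis) for the 10 genes; both ratios share the state 2 value, red genes were called between state 3 and state 1, grey genes were not, and the dotted line marks equal steps. Fosl2 lies well to the right of the line (x 3.18, y 1.74). So do Jun, Fosb and Egr1 (x from 1.57 to 1.74, y from 0.41 to 0.63), while Junb lies on the line and Fos to its left.

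Against the total population, 8 of the 10 genes were called higher in state 3 (10.8% of all genes were, and 8.32% were lower) and the same 8 higher in state 2 (5.82%, with 5.3% lower). In state 1, 0 were called higher and 1 lower (0.707% of all genes were called higher and 1.27% lower), which was Fosl2 at 0.25-fold (log2 -2.00). These comparisons share the total population, and those above share the state values. For 7 genes the total population lay above state 1 and below state 2, as it did for 30.2% of the 16795 genes with a mean of at least 5. Fos was at its lowest in the total population, below all 3 sorted states, at 55.2 against 86.1 in state 1. That difference was not called (log2 0.63 for state 1 over the total population, summed probability 0.421), while state 2 over the total population was (log2 1.16). Jund was also lowest there, and Ier2 highest. Of 16795 genes with a mean of at least 5, 13.0% were lowest and 14.3% highest in the total population.

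Other immediate-early genes, a list of 32 that holds none of the 10, had 20 members higher in state 3 than in state 1, 2 lower and 10 not called, with a median log2 ratio of 1.18. Of all genes, 11.4% were higher and 9.01% lower, and of those in the range of the 10, 22.7% and 19.5%. Egr3, a relative of Egr1, had 62.4 in state 3, 18.8 in state 2, 2.56 in state 1 and 5.59 in the total population (log2 4.15 for state 3 over state 1). Ptgs2, the inducible cyclooxygenase, had a log2 ratio of 3.61, Cyr61, a matrix protein and target of SRF and YAP, one of 3.39, and Ier5 one of 3.10. The 2 that fell were Sgk1, a serum and glucocorticoid-regulated kinase (log2 -1.89), and Socs3, a feedback inhibitor of LIF signalling (log2 -0.97). Nr4a1, an orphan receptor of the immediate-early class, had 623 in state 3, 438 in state 2 and 772 in state 1 and was not called. Between state 2 and state 1, 17 of the 32 were higher and 2 lower, and between state 3 and state 2, 11 were higher and 1 lower. Of all genes, 7.11% were higher and 6.33% lower in state 2 than in state 1, and 5.41% and 3.19% in state 3 than in state 2.

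Inhibitors and turnover factors had 9 of 15 members higher in state 3 than in state 1, 2 lower and a median of 1.01. The shares over all genes were 11.4% higher and 9.01% lower. Among the 9764 genes with a mean of 50.6 to 1857 they were 22.7% and 19.5%. Nab1, a corepressor of Egr factors, had 527 in state 3, 213 in state 2 and 108.5 in state 1 (log2 2.27). The MAP kinase phosphatases Dusp2 (log2 2.35), Dusp5 (2.15) and Dusp1 (1.64) were also higher. Dusp1 and Zfp36 were also on the list of other immediate-early genes, and Jdp2 also on the list of bZIP genes, so these lists overlap. Fbxw7, which marks Jun protein for breakdown, was lower (log2 -0.31), as was Zfp36l1, an RNA decay factor (log2 -0.49).

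Of 18 kinases that act upstream of AP-1, 3 were higher in state 3 than in state 1 and 5 lower, with a median of -0.09. These shares are near those of the genes in the range of the 10, 22.7% higher and 19.5% lower. Rps6ka3, an ERK-dependent kinase, had a log2 ratio of 0.83 and Mapk8, which encodes the Jun kinase JNK1, one of 0.47. Map2k6, a p38 activator, had -0.86 and Rps6ka1 had -0.50. Of 6 serum response and ternary complex factors, 2 were higher and 0 lower, against 22.7% and 19.5% of the genes in the range of the 10. Srf had 1559 in state 3, 1178 in state 2 and 799 in state 1 (log2 0.96), and Elk4 had a log2 ratio of 0.32.

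Among 20 bZIP genes of the wider family, 7 were higher in state 3 than in state 1, 2 lower and 11 not called, with a median of 0.11. For comparison, 11.4% of all genes were higher and 9.01% lower. At a mean of 50.6 to 1857, 22.7% of genes were higher and 19.5% lower. Maf, a large Maf factor, had 32.3 in state 3, 8.19 in state 2, and 0 in state 1, so it was at least 33.6-fold higher in state 3 than in state 1, where 0 stands for up to 0.96, the worth of 3 reads over the group. Creb5 (log2 4.15) and Maff (2.12) were also higher. Atf2 and Atf4, abundant bZIP genes, had log2 ratios of 0.03 and -0.14 and were not called.

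Genes ascribed to AP-1 in other cells had 10 of 16 measured members higher in state 3 than in state 1, 1 lower and a median of 0.83. Over all genes, 11.4% were higher and 9.01% lower, and in the range of the 10, 22.7% and 19.5%. Cd44, a hyaluronan receptor, had 166 in state 3, 19.2 in state 2 and 2.60 in state 1 (log2 5.54). Plau, the urokinase (log2 3.93), and Mmp9, a gelatinase (log2 3.47), were also higher. Spp1, osteopontin, fell (log2 -1.36). Of these 16, 3 were higher and 2 lower in state 2 than in state 1, and 10 were higher and 0 lower in state 3 than in state 2. Of the genes in the range of the 10, 14.9% were higher and 13.9% lower in state 2 than in state 1, and 11.3% were higher and 7.0% lower in state 3 than in state 2.

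**Figure D4:**
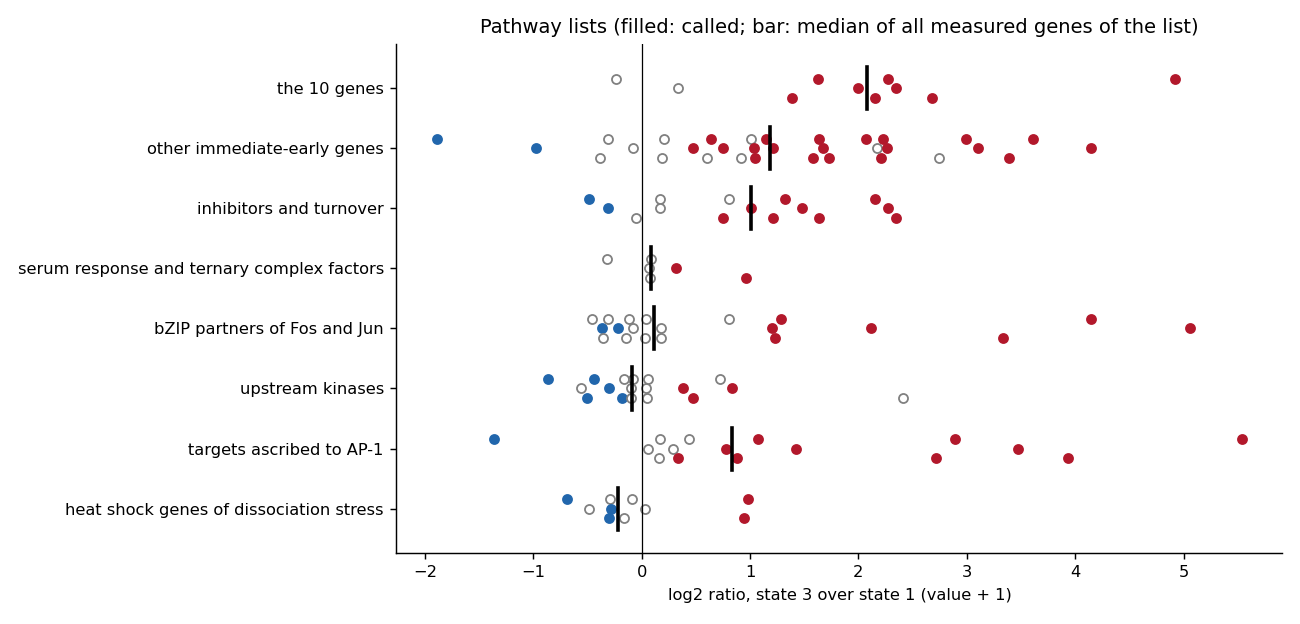
Log2 ratio of state 3 over state 1 (value plus 1) for the 10 genes and for 7 lists of related genes; each point is a gene, red was called higher, blue called lower, open not called, and the black bar is the median of the measured genes of a list. Maf, listed at 0 in state 1, is drawn at its ratio of values plus 1. Medians run from 2.07 for the 10 genes through 1.18 for other immediate-early genes to -0.22 for heat shock genes.

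Markers of other cells, except blood cells, moved with these results. Of all genes, 11.4% were called higher and 9.01% lower in state 3 than in state 1. Feeder fibroblast genes were higher in state 3 than in state 1 in 5 of 9 cases, with summed values of 5362 in state 3, 1291 in state 2, 154 in state 1 and 739 in the total population. Tagln alone gave 3445 of the sum in state 3 and 978.5 of that in state 2. Acta2 had 763 in state 3 and 11.4 in state 1 (log2 5.95), Tagln 3445 and 70.2 (log2 5.60), Col3a1 167 and 2.61 (log2 5.54), and Col1a1 827 and 23.0 (log2 5.11). Of the 4 that were not called, Dcn and Lum were at 12.4 and 1.46 in state 3, at 2.09 and 0 in state 2, and at 0 and 0.32 in state 1, and Thy1 and Prrx1 were the others. Primitive endoderm genes were higher in 6 of 7 cases (summed values 915 in state 3, 377 in state 2, 70.7 in state 1), led by Cubn (log2 5.41) and Foxa2 (log2 3.90). Between state 2 and state 1, 2 of the 7 were called higher and 0 lower, against 7.11% and 6.33% of all genes. Dab2 (172) and Foxa2 (143) gave most of the state 2 sum, while Gata6 (3.14 against 5.51) and Pdgfra (4.55 against 5.50) lay below state 1, not called. Foxa2 was at 100.3 in state 3, below state 2, and that difference was not called. Trophectoderm genes were higher in 5 of 6 cases (summed values 872 in state 3, 169 in state 2, 52.0 in state 1). Cdx2 had 400.1 in state 3 and 4.18 in state 1 (log2 6.27), Krt7 249.2 and 5.18 (log2 5.34), and Hand1 56.2 and 0.65 (log2 5.12), while Elf5, not called, had 0.36 and 0.64. Of 3 blood cell genes, 1 was higher and 2 were lower. No marker was at 0 in every group. The part of these cell types in the values of the 10 genes was not tested. Heat shock genes, which cell dissociation can induce together with Fos and Jun, had 2 of 10 members higher in state 3 than in state 1, Hspa1b (log2 0.98) and Hspa1a (0.94), and 3 lower, among them Hspb1 (log2 -0.69). The shares were 11.4% higher and 9.01% lower over all genes, and 22.7% and 19.5% in the range of the 10. Most heat shock genes, with each of the 3 called lower, had values above that range (Hspb1 at 2591 in state 3), so that share is not matched to their level. The part of dissociation in the values of the 10 genes was not tested.

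The genes whose profile over the 4 groups lay nearest to the median of the 8 called genes (log2 2.21 for state 3, 1.53 for state 2 and 0.52 for the total population, each over state 1) were Ltbp1, Plcl2, Grip1, Limd2 and Slit3. Ltbp1, a binding protein of latent TGF-beta, was 0.099 log2 units away, with 477 in state 3, 274 in state 2, 95.5 in state 1 and 137 in the total population. Slit3, the fifth, was 0.151 away.

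Fragments of the 10 transcripts also appeared in the small RNA table, which had 2 libraries a group. Values there were low for 9 of the genes, from 0 to 21.3 over all groups, and the highest was Jund, at 18.7 in state 3, 52.4 in state 2, 59.2 in state 1 and 107 in the total population. There, 0 of the 10 were called in any comparison, against 1.82% of all 26278 features. The highest summed probability between states, from the authors' deposited table, was 0.902 for Jund in state 3 against state 1, and against the total population state 3 had 0.907. These are pieces of longer RNAs that passed a small RNA protocol, and give no transcript level.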

How the data were processed

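Libraries numbered 12 for RNA-seq and 8 for small RNA-seq, over 4 groups. STAR 2.4.1d and RSEM 1.2.30 are named in the submitters' processing notes, as are mm10 and GRCm38, with no roles. The sources used here do not say how libraries were scaled and combined. The authors deposited, for each gene, 1 normalized signal per group. Beside it stands a deposited score, an EBSeq posterior probability, for each of 15 patterns. What each pattern sets equal is not written in the tables and was inferred: in 94.4% of 1453 genes the values fitted the order used, against 90.8% for the closest rival order (state 1 and total population switched). Probabilities of the patterns that separate a pair of groups were summed, and 0.95 or more was called. The summing alone was tested on simulated data. No p-value and no count test was computed, since the tables hold 1 value per group. Ratios are log2((value + 1)/(value + 1)), with no filter on low values. Entries without a gene name (18) held 0.0195% of the state 1 total.

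Reads behind a value were judged from the commonest value below 1 in its column, taken as 1 read (0.28 to 0.36 units). Counting intervals (95%) use the delta method, and a value of 0 allows up to 3 reads over the group. The gene symbols and lists were chosen with earlier results of these data known. Named from each list were up to 4 called genes with the largest ratio between state 3 and state 1; other list genes given by name were chosen after their values were seen. Some genes that this rule names are not reported here. Like genes were sought among 9758 named genes with a mean of at least 5 ppm of the column total. Python 3.11.15, pandas 2.3.3, NumPy 2.4.6 and matplotlib 3.10.9 were used.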

Additional observations from a re-analysis of the deposited data

How the results depend on the processing

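Calls rest on the deposited probabilities, so pseudocount, scaling and the filter on low values could not move the counts of the 10 genes called and show nothing of their stability. At a limit of 0.99, 7 were called in state 2 against state 1 (3426 of all 29692 genes) and 6 in state 2 against the total population (2657 of all genes). At a limit of 0.5, 8 of the 10 were called in state 3 against state 2 (4251 of all genes) and 3 in state 1 against the total population (1200 of all genes), and 5284 genes were called in state 2 against the total population. The log2 ratio of Ier2 in state 1 over the total population turned to 0.0019 under median-of-ratios scaling. Quantile rescaling shifted the median gene by -0.141 in state 3 against state 1 and turned no ratio of the 10 genes. A Pearson correlation over the 4 groups gave 0 of the same 5 like genes, and 486 genes reached 0.99 or more. No paired analysis was possible because the columns hold 1 value per group and carry no replicate letter, and for the same reason no replicate could be left out.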

Other observations

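Hbegf, a ligand of the EGF receptor that was on the list of AP-1 targets, had its lowest value in state 2 and was singled out after its values were seen. It had 361 in state 3, 120 in state 2, 322 in state 1 and 248 in the total population. It was called lower in state 2 than in state 1 (log2 -1.42) and higher in state 3 than in state 2 (log2 1.58). The 17 coding genes that lie between Ier2 and Junb on chromosome 8 had 1 member called higher in state 3 than in state 1 and 4 lower, with a median log2 ratio of -0.15. The shares over all genes were 11.4% higher and 9.01% lower. Among genes with a mean of 50.6 to 1857 they were 22.7% and 19.5%.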
